A study of Mus musculus with 90 samples.

Results

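This account concerns the response of mouse lung to 4 weeks of inhaled styrene at 40 ppm that differed between mice with and without the airway enzyme Cyp2f2. For each of 17097 genes, the change in wild-type mice (WT, 40 minus 0 ppm) was set against the mean of the changes in 2 strains without Cyp2f2, and the result is called the Cyp2f2 difference. The comparison uses 30 of the 90 arrays of the study, 5 animals in each of 6 groups. All animals were adult male C57BL/6 mice from one supplier. The knockout (KO) lacks Cyp2f2, and the transgenic strain (TG) lacks it too and carries the human genes written in the labels as 2F1, SA13 and 2B6. Neither the promoters of the transgenes nor an exact age is stated in the labels. The groups inhaled air (0 ppm) or styrene at 40 ppm, with daily sessions of 6 h on 5 days of each week over 4 weeks. Animals were killed the next morning, and RNA came from whole lung. The study also held groups exposed for 1 week and groups exposed to 120 ppm, which serve below as separate comparisons.

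Cyp2f2 is a cytochrome P450 of the club cells that line mouse airways, and it oxidises styrene and other small aromatic molecules there. Such oxidation gives reactive products, which glutathione transferases, epoxide hydrolases and other enzymes of conjugation clear. Styrene is known for its toxicity to mouse club cells, which respond to injury by dividing.

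Each value is the log2 expression of a gene on a 3' expression array, 1 array per animal, and a difference of 1 on this scale is a change in level by a factor of 2. Array medians in the 6 groups lay between 4.55 and 4.86, and a level below 4.42, the lowest median of all arrays, is called dim here. Lung markers were high in the 6 groups, with Sftpc (surfactant protein C) means from 13.8 to 13.84, Ager (alveolar type I cells) from 13.53 to 13.57 and Scgb1a1 (the club cell secretory protein) from 13.73 to 13.83. The array of KO animal 1 at 40 ppm stood apart, with a limma array weight of 0.0897 and poly-A control probe sets averaging 8.18 against 6.38 to 7.62 on the other 29 arrays. Results that change without this animal are given with and without it.

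Cyp2f2 itself was read first as a check of the strain labels. WT controls read 13.27, 13.26, 13.21, 13.25 and 13.39, KO controls 11.90, 11.91, 11.77, 12.03 and 11.83, and TG controls 11.68, 11.81, 11.80, 11.93 and 11.99. All WT controls thus lay above all controls of the other strains, by 1.38 (KO) and 1.43 (TG) on average, and a two-sided exact permutation test gave p = 0.0079 for each, the smallest that 5 against 5 animals allow. At 40 ppm the level was 13.1 ± 0.1 in WT (SD, n = 5), 12.09 ± 0.14 in KO and 12 ± 0.15 in TG, again without overlap. The single probe set for Cyp2f2 still gave a bright signal in KO and TG lungs, and the labels do not say whether that probe set lies in the deleted stretch.

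7 genes passed the test for the Cyp2f2 difference after 4 weeks at 40 ppm (limma, Benjamini-Hochberg adjusted p under 0.05), which is 0.0409% of the 17097 genes. Ces1g, Serpind1, Gm8126 and Wif1 had the higher change in WT, and Pon1, Itih2 and Aspg the lower. Each of the 7 also passed for the WT change on its own, which is part of the difference and uses the same WT arrays. In KO and in TG mice 0 genes passed. These counts depended on the settings, and with array weights 10 genes passed in KO and 73 in TG, against 87 in WT. The median difference over all genes was -0.01, and the 4 higher and 3 lower genes make up 0.0234% and 0.0175% of the genes tested. At an unadjusted p under 0.05, 303 genes were higher (1.77%) and 344 lower (2.01%). Together these were 647 genes (3.78%), fewer than that threshold would give with no true difference in any gene. Of the 7 genes, Pon1 was bright, and the other 6 had a mean over the 90 arrays at or below the 40th percentile of genes.

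The stretches around the gene starts are shown for the 3 genes that passed whichever animal was left out, and for Pon1, the 1 bright gene, so that the measured genes can be placed on the genome. They are RefSeq sequences of build GRCm38.p6, from 250 bases before the start of the gene to 50 after it, read along the gene's own strand. All 7 genes had an entry under their symbol. Ces1g lies on the minus strand at chr8:93337160-93337459, Serpind1 on the plus strand at chr16:17331121-17331420, Itih2 on the minus strand at chr2:10130634-10130933 and Pon1 on the minus strand at chr6:5193897-5194196. Capitals mark matches to the motifs named after the sequences.
Ces1g: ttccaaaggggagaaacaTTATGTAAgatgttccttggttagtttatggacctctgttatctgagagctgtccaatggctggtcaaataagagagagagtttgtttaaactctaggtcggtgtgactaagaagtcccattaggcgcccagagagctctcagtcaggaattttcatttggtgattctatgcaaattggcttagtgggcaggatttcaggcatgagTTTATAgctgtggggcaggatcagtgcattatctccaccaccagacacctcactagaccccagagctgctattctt
Serpind1: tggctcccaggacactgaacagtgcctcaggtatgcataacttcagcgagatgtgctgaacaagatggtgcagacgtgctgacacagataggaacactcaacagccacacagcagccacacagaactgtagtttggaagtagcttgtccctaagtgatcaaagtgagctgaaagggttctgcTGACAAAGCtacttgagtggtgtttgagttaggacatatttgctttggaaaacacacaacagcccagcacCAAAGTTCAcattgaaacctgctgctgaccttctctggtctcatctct
Itih2: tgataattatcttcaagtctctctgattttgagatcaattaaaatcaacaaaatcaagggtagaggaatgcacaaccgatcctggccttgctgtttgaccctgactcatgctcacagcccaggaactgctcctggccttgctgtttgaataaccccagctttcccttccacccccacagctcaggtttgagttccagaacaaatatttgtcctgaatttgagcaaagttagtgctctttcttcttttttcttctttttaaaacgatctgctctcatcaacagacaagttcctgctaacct
Pon1: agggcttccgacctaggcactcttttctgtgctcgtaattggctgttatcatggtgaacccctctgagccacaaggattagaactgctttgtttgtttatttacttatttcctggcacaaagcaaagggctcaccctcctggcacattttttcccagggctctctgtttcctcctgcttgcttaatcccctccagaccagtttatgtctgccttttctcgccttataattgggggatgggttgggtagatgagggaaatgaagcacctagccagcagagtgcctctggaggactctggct

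Each motif was searched on both strands of 32851 promoter entries of this length. The Ces1g stretch holds the D-box TTATGTAA, which DBP, TEF, HLF and NFIL3 bind and which 0.938% of the entries hold, and the TATA box TATAAA (13.6% of entries) on the opposite strand. The Serpind1 stretch holds CAAAGTNCA, an element of the liver factor HNF4 (1.41% of entries), and the antioxidant response element TGACNNNGC (12.4%). Itih2 and Pon1 held none of the 9 motifs. The other motifs searched were the E-box CACGTG (7.15%), the xenobiotic response core GCGTG (32.4%), the HNF1 element (0.399%), the DR1 repeat (0.0396%) and the glucocorticoid response element (0.00913%). Among the called genes not shown, Wif1 held the E-box and, on the opposite strand, the TATA box. Aspg, which was lower in exposed WT mice, held the antioxidant response element. The entries under the symbol Gm8126 held no match, and whether they belong to the measured transcript is uncertain. A match describes the letters only.

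Ces1g had the largest Cyp2f2 difference of the genes that passed. It encodes a carboxylesterase, an enzyme of lipid and drug ester hydrolysis that is abundant in liver. WT controls read 5.21, 4.95, 5.26, 5.14 and 5.60, and WT mice at 40 ppm 7.83, 7.97, 7.24, 7.94 and 7.59. KO mice read 3.91, 3.62, 3.29, 3.49 and 3.44 at 0 ppm and 3.95, 3.27, 3.53, 3.30 and 3.65 at 40 ppm. TG mice read 3.51, 3.80, 3.09, 3.22 and 3.30 at 0 ppm and 3.57, 3.45, 3.85, 3.86 and 3.66 at 40 ppm. All exposed WT animals lay above all 25 others, and both strains without Cyp2f2 stayed at dim levels with overlapping doses. Low signals are compressed in such data, so a change in KO or TG at these levels may be understated. The change was 2.48 in WT, a 5.59-fold rise, against -0.01 in KO and 0.29 in TG (SE 0.21 each). The difference was 2.34 (SE 0.26, 95% interval 1.83 to 2.85, limma adjusted p = 1.4e-09). Before exposure the strains already differed, and the mean of KO and TG controls minus that of WT was -1.76 (SE 0.18, limma adjusted p = 3.2e-11). Over all genes, 26 differed between the unexposed strains in this way (0.152%).

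Serpind1 rose in WT mice from a level that the strains shared. It encodes heparin cofactor II, a plasma inhibitor of thrombin made mainly in liver. WT values were 4.56, 4.70, 4.68, 5.11 and 4.92 at 0 ppm and 5.92, 6.28, 6.14, 6.12 and 6.54 at 40 ppm. KO values were 4.88, 4.74, 5.14, 5.04 and 4.71 at 0 ppm and 4.69, 5.09, 4.91, 4.96 and 5.40 at 40 ppm. TG values were 4.99, 4.98, 4.52, 4.96 and 4.74 at 0 ppm and 4.89, 5.01, 4.38, 4.91 and 4.73 at 40 ppm. The exposed WT animals again lay above all 25 others. The WT change of 1.41 (2.66-fold) stood against 0.11 in KO and -0.05 in TG (SE 0.17 each), and the difference was 1.38 (SE 0.21, interval 0.98 to 1.79, limma adjusted p = 2.2e-05). The controls of KO and TG differed from those of WT by 0.08 (SE 0.14, limma adjusted p = 1).

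Itih2 fell in WT mice. It encodes a heavy chain of inter-alpha-trypsin inhibitor, a protein that binds hyaluronan of the extracellular matrix. WT controls read 4.97, 4.82, 4.58, 4.46 and 4.64 and exposed WT mice 3.90, 3.98, 3.97, 3.72 and 3.89. KO mice read 3.95, 4.28, 3.89, 4.42 and 3.96 at 0 ppm and 4.48, 4.85, 4.44, 4.22 and 3.98 at 40 ppm, and TG mice 4.12, 4.14, 3.85, 4.15 and 4.13 and then 4.25, 4.37, 4.15, 4.41 and 4.63. The WT doses did not overlap, while the exposed WT animals overlapped the lowest KO and TG animals. The WT change was -0.8 (SE 0.16), the changes in KO (0.29) and TG (0.28) had the opposite sign without passing, and the difference was -1.09 (SE 0.2, interval -1.49 to -0.69, limma adjusted p = 0.0039). KO and TG controls were lower than WT controls, with a difference of -0.6 (SE 0.14, limma adjusted p = 0.042), so that at 40 ppm the order of the strains turned. All exposed WT animals and all TG controls were dim, and KO controls read 4.42 or less. Exposed KO and TG animals lay on both sides of the dim level. The order at 40 ppm thus rests on values near or below that level, where signals are compressed.

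Pon1, the bright member of the 7, encodes paraoxonase 1, an esterase that hydrolyses organophosphates and lactones and circulates on high-density lipoprotein. WT animals read 11.39, 11.01, 11.15, 10.92 and 11.18 at 0 ppm and 10, 10.32, 10.05, 9.99 and 10.19 at 40 ppm. KO animals read 10.66, 10.64, 10.70, 10.79 and 10.58 at 0 ppm and 10.68, 11.20, 10.82, 10.41 and 10.84 at 40 ppm. TG animals read 10.71, 10.94, 10.64, 10.69 and 10.94 at 0 ppm and 10.81, 10.67, 10.73, 11.02 and 10.97 at 40 ppm. All exposed WT animals lay below all 25 others. The WT change was -1.02, a 2.03-fold fall, against 0.12 in KO and 0.06 in TG (SE 0.2 each), and the difference was -1.11 (SE 0.24, interval -1.58 to -0.63, limma adjusted p = 0.038). Controls ranged from 10.92 to 11.39 in WT, 10.58 to 10.79 in KO and 10.64 to 10.94 in TG. WT thus started higher, and the gap between the strains at 40 ppm was smaller than the difference of -1.11.

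3 further genes passed with smaller or dimmer signals. Wif1, a secreted inhibitor of Wnt signalling, read 4.40, 4.56, 5.04, 4.98 and 4.93 in WT controls and 5.55, 5.66, 5.70, 5.77 and 5.61 in exposed WT mice, against means of 4.8 and 5 in KO and of 5.02 and 4.97 in TG at 0 and 40 ppm. Its exposed WT animals lay above all 25 others, and the difference was 0.8 (SE 0.17, limma adjusted p = 0.038). Aspg, an asparaginase, was dim in all 6 groups, and its WT values were 3.30, 3.27, 3.78, 3.61 and 3.57 at 0 ppm and 3.22, 2.75, 2.95, 2.98 and 2.94 at 40 ppm. Its means at 0 and 40 ppm were 3.27 and 3.37 in KO and 3.34 and 3.56 in TG, and the difference was -0.7 (SE 0.15, limma adjusted p = 0.038). Gm8126, a predicted gene, read 4.06, 3.27, 3.1, 3.38 and 3.42 in WT controls and 4.61, 4.13, 5.06, 4.57 and 4.69 in exposed WT mice, with KO and TG means between 3.07 and 3.35. Its difference was 1.1 (SE 0.22, limma adjusted p = 0.012), and its probe set is of a type that can also bind related transcripts, so its identity is uncertain.

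**Figure D1:**
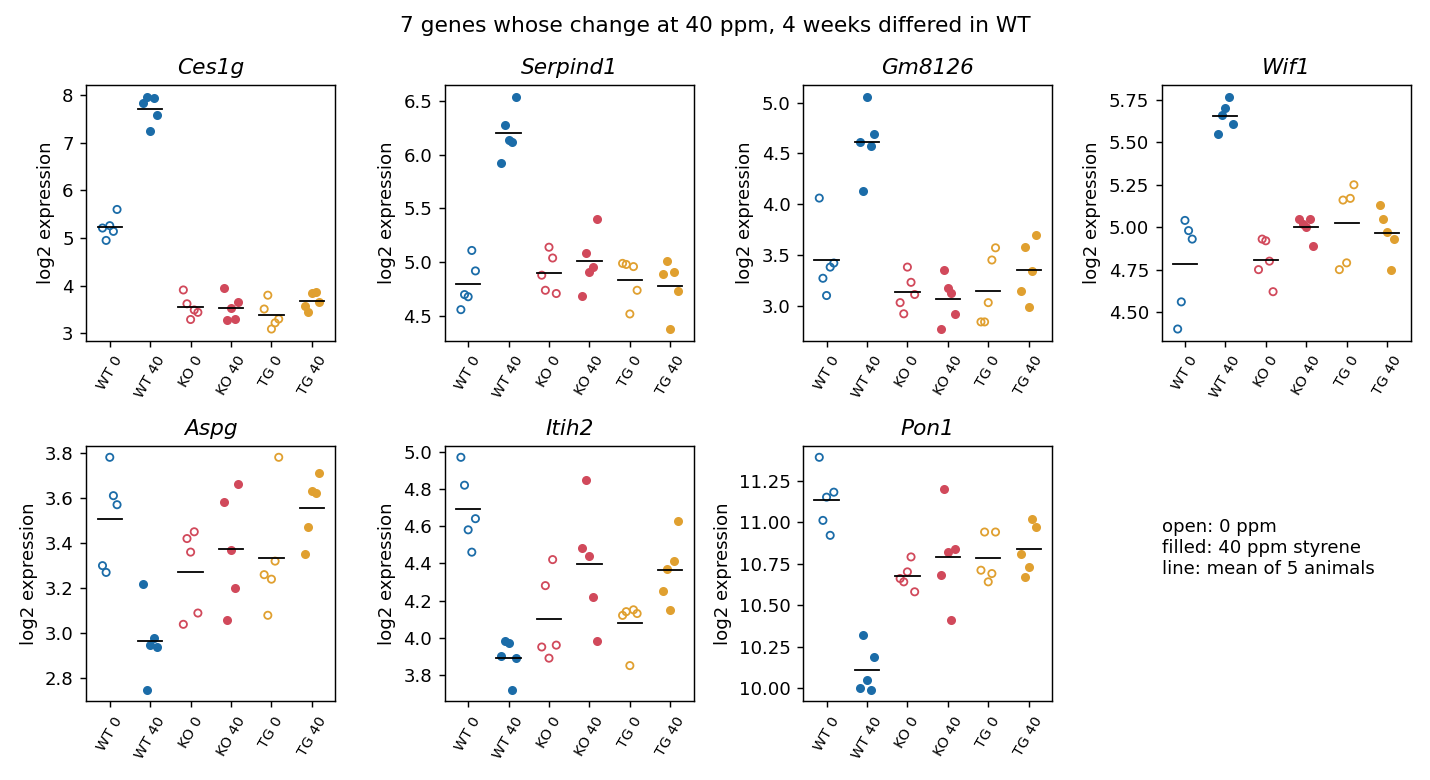
Log2 expression (y axis) of the 7 genes that passed, by strain and styrene dose in ppm (x axis). Each point is 1 animal, open at 0 ppm and filled at 40 ppm, and the line is the mean of 5 animals. In all 7 panels the exposed WT points do not overlap the WT controls.

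Exposed and control WT animals did not overlap for any of the 7 genes, and over all genes that share was 2.04%. For 5 of them (Ces1g, Serpind1, Gm8126, Wif1 and Pon1) the exposed WT animals also lay apart from all 25 other animals, which held above for 0.0877% of all genes and below for 0.0117%. These counts rest on the same animals as the test and describe it.

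Ces1g, Serpind1 and Itih2 passed in each of the 30 fits that left out 1 animal. Gm8126 missed without WT control animal 3 (limma adjusted p = 0.081) and without exposed WT animal 3 (0.1), and with only the compared arrays in the fit (0.053). Aspg passed in 13 of the 30 fits and Pon1 and Wif1 in 10 each, with limma adjusted p between 0.0071 and 0.19 for Aspg, 0.024 and 0.19 for Pon1 and 0.028 and 0.27 for Wif1, although the differences stayed between -0.77 and -0.63, -1.16 and -1.04, and 0.71 and 0.87. Pon1 passed without WT control animal 4, KO control animal 4, TG control animals 1, 2 or 5, exposed WT animal 2, exposed KO animal 4 or exposed TG animals 1, 2 or 3. Wif1 passed without WT control animals 3 or 4, KO control animal 5, TG control animals 1 or 3, exposed WT animal 1, exposed KO animal 4 or exposed TG animals 1, 2 or 3. Aspg passed without WT control animals 1 or 2, KO control animals 2, 3 or 4, TG control animals 1 or 5, exposed WT animal 1, exposed KO animals 2 or 4 or exposed TG animals 1, 2 or 3. Without the KO animal whose array stood apart (animal 1 at 40 ppm), 4 genes passed, and Aspg (-0.68, limma adjusted p = 0.053), Pon1 (-1.12, 0.05) and Wif1 (0.81, 0.05) did not. The number of genes was also 4 without WT control animals 3 or 5, KO control animal 1, TG control animal 4, exposed WT animals 4 or 5, exposed KO animals 3 or 5 or exposed TG animals 4 or 5, and 3 without exposed WT animal 3.

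The strains without Cyp2f2 were also compared with WT one at a time. WT and KO changes differed for 4 genes (0.0234% of those tested), namely Ces1g (2.49, SE 0.3, limma adjusted p = 3e-08), Serpind1 (1.3, SE 0.24, 0.0041), Gm8126 (1.23, SE 0.25, 0.028) and Itih2 (-1.1, SE 0.23, 0.045). WT and TG changes differed for 2 genes (0.0117%), Ces1g (2.19, SE 0.3, limma adjusted p = 2.9e-06) and Serpind1 (1.46, SE 0.24, 0.00024). For Itih2 the difference from TG was as large as that from KO, at -1.08 (SE 0.23, limma adjusted p = 0.06). For Pon1 the differences were -1.14 from KO and -1.08 from TG (SE 0.28 each), and neither passed. Without WT control animals 2, 3 or 5, KO control animals 3 or 5, exposed WT animals 1, 3 or 5 or exposed KO animal 1, WT and KO differed for 2 genes. WT and TG differed for 4 genes without WT control animal 4, TG control animal 1 or exposed TG animal 3.

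TG and KO changes were compared directly, which asks whether the human genes altered the response to 40 ppm. By limma, 0 genes passed (784 at an unadjusted p under 0.05, 4.59% of those tested). For Ces1g the TG change exceeded the KO change by 0.31 (SE 0.3), for Serpind1 the value was -0.16 (SE 0.24) and for Pon1 -0.06 (SE 0.28). In the TG strain alone 0 genes passed and 1278 had an unadjusted p under 0.05 (7.47%), and in KO alone 0 passed and 537 did so (3.14%). In WT 809 genes had an unadjusted p under 0.05 (4.73%), a smaller share than in TG. With the poly-A covariate 109 genes passed in TG and 56 in WT. The count for KO was 4 without exposed KO animal 1, 8 without exposed KO animal 2 and 6 without exposed KO animal 5, and that for TG was 1 without TG control animal 1.

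**Figure D2:**
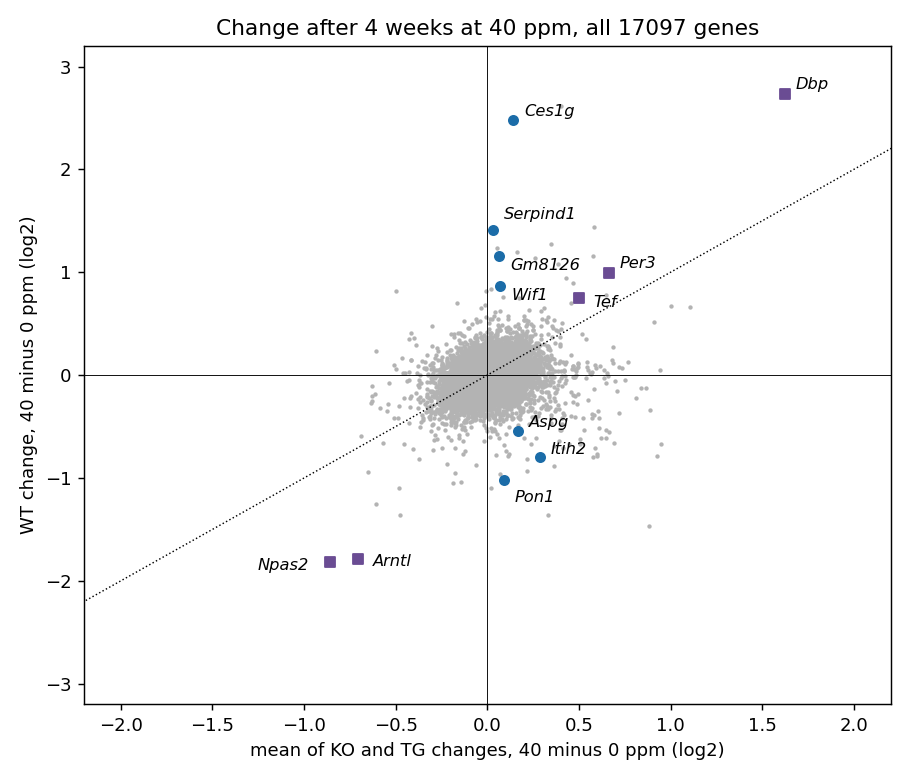
Log2 change after 4 weeks at 40 ppm in WT (y axis) against the mean of the KO and TG changes (x axis) for all genes, 1 point per gene, each change a difference of means of 5 animals per group. Blue circles are the 7 genes that passed and purple squares 5 clock genes, and the dotted line marks equal changes. Ces1g lies at 2.48 on the y axis and near 0 on the x axis, while Dbp lies at 2.73 with KO and TG changes of 1.45 and 1.8.

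Among genes that missed the threshold, those with the smallest p values are given next. They were ranked by the same test, so a likeness to the called genes follows from the choice. Azgp1, a lipid-mobilising zinc-binding glycoprotein, read 6.93, 6.61, 6.95, 6.76 and 6.80 in WT controls and 8.04, 8.12, 7.89, 8.21 and 7.79 in exposed WT mice, above all 25 other animals, and KO and TG means lay between 5.98 and 6.35. Its difference was 1.05 (SE 0.25, limma adjusted p = 0.16), and its WT change of 1.2 passed on its own (0.00033). Asgr1, a subunit of the asialoglycoprotein receptor known from liver, read 5.95, 5.15, 5.87, 5.30 and 5.71 in WT controls and 4.62, 4.74, 4.07, 3.93 and 3.81 in exposed WT mice. Its difference was the largest of those near the threshold, at -1.69 (SE 0.4, limma adjusted p = 0.11), and exposed KO animal 1 had the highest value of the 30, 6.66. The transcript A930001A20Rik fell from a mean of 5.15 to 4.05 in WT, below all 25 other animals, and its difference was -1.12 (SE 0.25, limma adjusted p = 0.063). The solute carrier relative Mfsd4a (-0.89, 0.18), the tight junction protein Cldn8 (-0.88, 0.18), the matrix protein Sbspon (-1.35, 0.18) and the VIP receptor Vipr1 (-0.67, 0.18) were lower in the same comparison without passing, where the second value is the limma adjusted p. Under the alternative settings with no single animal left out, these differences ranged from -0.91 to -0.69, -0.91 to -0.82, -1.35 to -0.98 and -0.69 to -0.24, in the same order. On the higher side, the transcription factor Tcfl5 (0.5, 0.26) and the steroid hydroxylase Cyp17a1 (0.36, 0.24) did not pass either.

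In WT mice 26 genes changed at 40 ppm (0.152% of those tested), 15 of them higher (0.0877%) and 11 lower (0.0643%). All 26 had a Cyp2f2 difference of the same sign as their WT change, 23 of them at an unadjusted p under 0.05, and the shared WT arrays tie these values together. For 3 of the 26 the mean of the KO and TG changes reached 50% of the WT change or more in the same direction. Gp2, a glycoprotein of specialised epithelium, rose in WT by 2.62 (SE 0.54, limma adjusted p = 0.0073) against 0.34 in KO and 0.46 in TG, and its difference of 2.22 (SE 0.66) did not pass (limma adjusted p = 0.58). The count of 26 was 17 without WT control animals 1 or 3 and 12 without exposed WT animal 4.

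The circadian clock accounted for 6 of the 26 genes. In this system Arntl and Npas2 (or Clock) activate transcription, Per, Cry and Bhlhe40 proteins repress it, and Dbp, Tef, Hlf and Nfil3 pass the rhythm on to other genes. Dbp rose in WT by 2.73 (SE 0.43), Per3 by 0.99 (SE 0.21) and Tef by 0.75 (SE 0.16), and Arntl changed by -1.79 (SE 0.29), Npas2 by -1.82 (SE 0.29) and Nfil3 by -1.1 (SE 0.26), all passing for WT (limma adjusted p from 4.2e-05 to 0.049). KO and TG changes had the same sign in each case, for example 1.45 and 1.8 for Dbp (SE 0.43), -0.51 and -0.9 for Arntl (SE 0.29) and -0.57 and -1.15 for Npas2 (SE 0.29). Of the 17 clock genes measured, 0 passed for the Cyp2f2 difference, and the values were 1.11 for Dbp (SE 0.52, limma adjusted p = 1), -1.08 for Arntl (SE 0.35, 0.84) and -0.96 for Npas2 (SE 0.35, 1). These genes vary over the day, and the labels do not state the hour at which each animal was killed.

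The clock values were uneven among control animals. Dbp read 4.27, 4.83, 6.75, 6.72 and 6.26 in KO controls and 4.39, 5.07, 6.49, 6.65 and 6.42 in TG controls, so that animals 1 and 2 of both strains lay below animals 3, 4 and 5. WT controls read 5.70, 6.57, 5.09, 6.16 and 5.18, without that split. At 40 ppm Dbp read 8.15, 8.17, 9.09, 8.65 and 8.32 in WT, 7.21, 7.92, 7.06, 7.42 and 6.49 in KO and 7.61, 7.23, 6.70, 8.15 and 8.31 in TG, and Arntl 6.20, 6.32, 5.18, 5.54 and 6.27 in WT, 7.35, 6.26, 7.16, 7.13 and 7.45 in KO and 6.71, 6.85, 7.21, 6.18 and 5.71 in TG. The part of sampling time in these values, and in Ces1g with its D-box, was not tested.

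**Figure D3:**
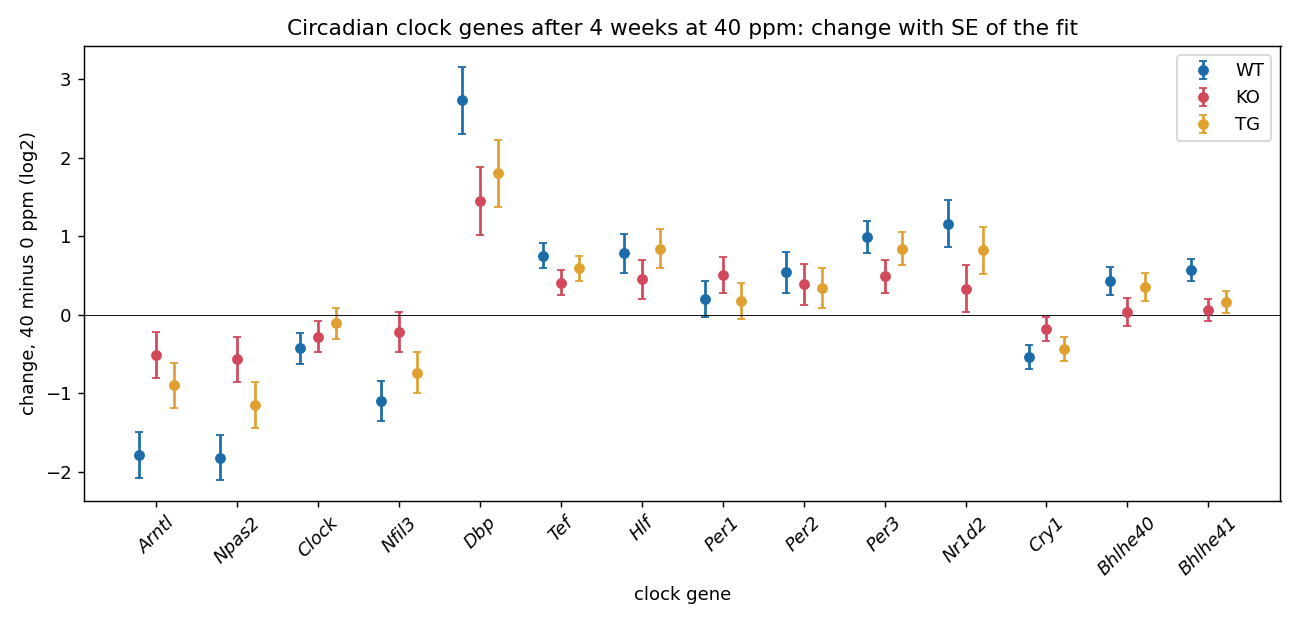
Log2 change after 4 weeks at 40 ppm (y axis) of 14 circadian clock genes (x axis) in WT, KO and TG mice, with bars showing the SE of the fit (5 animals per group). Dbp, Tef and Per3 lie above 0 and Arntl, Npas2 and Nfil3 below 0 in each strain, with the WT value farthest from 0.

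Genes of styrene metabolism and its aftermath were then read by role. Of 15 xenobiotic P450s measured, 0 passed, with a median difference of -0.08. Values were -0.51 for Cyp2e1 (SE 0.53), another P450 known to oxidise styrene, -0.45 for Cyp2a5 (SE 0.79) and 0.23 for Cyp2b10 (SE 0.13). The Cyp2a5 change was 0.66 in WT, 0.4 in KO and 1.81 in TG. Of 20 epoxide hydrolases and glutathione transferases 0 passed (median -0.04), with Gstm6 at -0.6 (SE 0.22), Mgst2 at -0.41 (SE 0.2) and Gstt2 at 0.27 (SE 0.17). Of 23 targets of Nrf2, the regulator of the response to electrophiles, 0 passed (median 0.06), with the biliverdin reductase Blvrb at 0.41 (SE 0.17), the carbonyl reductase Cbr3 at 0.33 (SE 0.18) and the transporter Abcc1 at -0.27 (SE 0.12). Nqo1, a quinone reductase on the same list, read a mean of 5.97 in WT controls and 6.48 at 40 ppm, and its difference was 0.11 (SE 0.22). KO and TG controls were lower in Nqo1 than WT controls, by a difference of -1.26 (SE 0.16, limma adjusted p = 2.7e-08). Among 25 carboxylesterases, paraoxonases, sulfotransferases and related enzymes, Ces1g was higher and Pon1 lower, and the median was -0.06. The neighbouring carboxylesterase Ces1c was at 0.57 (SE 0.22, limma adjusted p = 1) and Ces1f at -0.66 (SE 0.47). The list was drawn up with earlier results of these data known, so Ces1g and Pon1 are no independent evidence for it.

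Among airway and alveolar cells, 16 of 17 genes on the club cell list had a difference below 0 (median -0.18), against 47.9% above 0 over all genes, and 0 passed. The median change of the list was -0.13 in WT, 0.04 in KO and 0.09 in TG, so a fall in WT made up only part of the difference. Cyp2f2 was at -0.36 (SE 0.11, limma adjusted p = 0.75), Krt15 at -1.62 (SE 0.53, 0.85), Lypd2 at -1.12 (SE 0.39, 0.96) and the mucin Muc16 at -0.5 (SE 0.35, 1). The Cyp2f2 change was -0.18 in WT, 0.2 in KO and 0.16 in TG, the last 2 read from the signal left in strains without the gene. The 16 genes below 0 include Cyp2f2 and Krt15, so that count does not rest on club cell markers alone. Scgb1a1 (-0.1, SE 0.06) and Scgb3a2 (-0.05, SE 0.07), the most abundant secretoglobins, differed by little. The Scgb1a1 means given above lay near 14.01, the highest value on any array. How well so bright a probe set could show a change was not tested. The Krt15 change was -0.67 in WT, 0.12 in KO and 1.78 in TG (SE 0.43 each). Exposed TG animals read 4.00, 4.25, 7.36, 3.98 and 5.89 against 3.25, 3.39, 3.11, 3.41 and 3.40 in TG controls. Without WT control animal 4 the median difference of the club cell list was -0.29. Whole lung was measured, so fewer cells of a type and less RNA per cell cannot be told apart. For 21 ciliated cell markers the median was 0.02 and for 20 alveolar type II markers 0.11 (16 above 0), with the alarmin Il33 at 0.32 (SE 0.26), and 0 passed in either. For 20 genes of mucous metaplasia the median was -0.08 and 0 passed. Of these 12 were below 0 and 8 above, with the trefoil peptide Tff2 at -1.05 (SE 0.83) and Bpifa1, an antimicrobial airway protein, at -0.99 (SE 0.92) on one side, and the anion exchanger Slc26a4 at 0.83 (SE 0.59), Clca1 at 0.82 (SE 1.21) and Agr2 at 0.43 (SE 0.57) on the other.

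Immune lists also held 0 genes that passed. Of 24 T and NK cell markers 22 were above 0 (median 0.14), with the receptor Klrd1 at 0.49 (SE 0.24), and of 16 B and plasma cell markers 15 were above 0 (median 0.29), with Jchain at 0.68 (SE 0.61). The WT medians of these lists were -0.02 and 0.06, while those of KO were -0.08 and -0.37 and those of TG -0.16 and -0.19, so the strains without Cyp2f2 had the values farther from 0. Without TG control animal 3 the B and plasma cell median was 0.15, and without WT control animal 1 it was 0.49. Of 19 alveolar and alternatively activated macrophage genes 13 were above 0 (median 0.13). Among them Retnla, a secreted product of such macrophages, was at 1.19 (SE 0.38, limma adjusted p = 0.81), the arginase Arg1 at 0.7 (SE 0.53) and the fatty acid binding protein Fabp4 at -0.57 (SE 0.64). Among 23 immediate early genes, which respond within minutes to stimulation, the median was -0.18 and 18 were below 0, with Nr4a3 at -0.88 (SE 0.38) and Fosb at -0.77 (SE 0.28). The dividing-cell lists are given with the comparison of times.

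**Figure D4:**
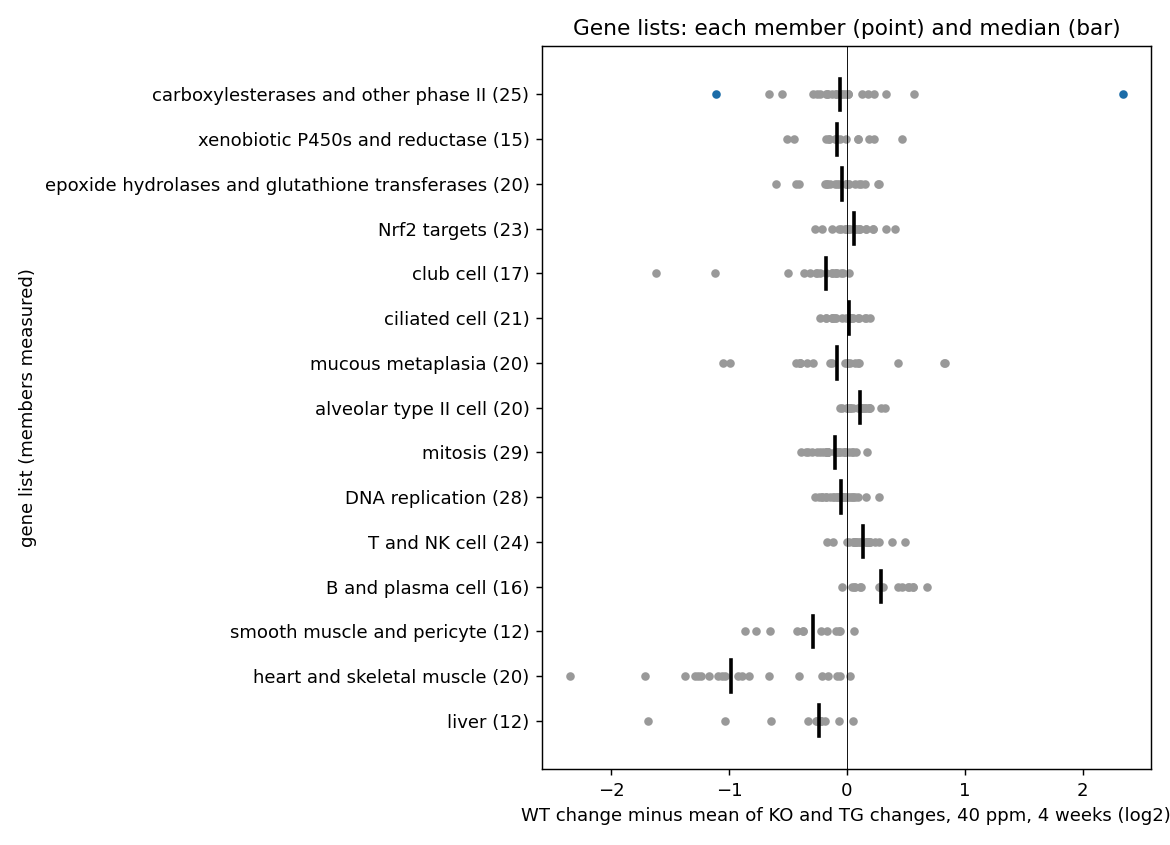
Cyp2f2 difference (x axis, log2) of each measured member of 15 gene lists (y axis, number measured in brackets), with the list median as a black bar. Blue points passed the test. These are Ces1g at 2.34 and Pon1 at -1.11, and the heart and skeletal muscle list has its median at -0.98.

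The heart and skeletal muscle list had 19 of 20 members below 0 and a median difference of -0.98, with the atrial hormone Nppa at -2.35 (SE 1.23) and skeletal actin Acta1 at -1.71 (SE 0.74), and 0 passed. The median change of the list was -0.5 in WT, 0.25 in KO and 0.6 in TG. The mean level of this list ranged from 4.96 to 6.81 in WT controls, 4.9 to 5.53 in exposed WT, 4.65 to 5.87 and 4.45 to 6.63 in KO, and 5.11 to 5.66 and 5.38 to 6.94 in TG mice, where the second range is that at 40 ppm. Nppa read 8.37, 7.89, 4.35, 3.63 and 3.83 in WT controls and 9.13, 3.70, 7.77, 5.80 and 2.90 in exposed KO mice, with wide spread within groups. The median difference of the list was -0.63 without WT control animal 1 and -1.24 without WT control animal 4. Smooth muscle and pericyte genes had 11 of 12 members below 0 (median -0.29), with Actg2 at -0.86 (SE 0.35) and Myh11 at -0.65 (SE 0.25). This median difference was -0.19 without WT control animal 2. The median change of the smooth muscle and pericyte list was -0.13 in WT, 0.17 in KO and 0.2 in TG. With the mean of the heart and skeletal muscle list as a covariate, 5 genes passed for the Cyp2f2 difference. They were Ces1g, Serpind1, Itih2 and Gm8126 of the 7, and Gp2, which did not pass without the covariate, while Pon1 (-1, limma adjusted p = 0.19), Wif1 (0.73, 0.19) and Aspg (-0.69, 0.087) were not among them.

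Liver transcripts were high in single animals too, and Ces1g, Serpind1, Itih2, Pon1 and Asgr1 are all known from liver. Albumin (Alb) read 6.43 in exposed KO animal 3 and 8.12 in exposed KO animal 4, and between 3.54 and 4.59 in the other 28 animals. The mean level of the liver list, Asgr1 among its 12 members, ranged from 4.15 to 5.96 in exposed KO mice and from 3.92 to 4.19 in the other 5 groups. Exposed KO animals 3 and 4 read 3.53 and 3.30 for Ces1g, 4.91 and 4.96 for Serpind1, 4.44 and 4.22 for Itih2 and 10.82 and 10.41 for Pon1, within the range of the other exposed KO animals for Ces1g, Serpind1 and Itih2, while animal 4 had the lowest Pon1 value. Exposed WT mice had Alb at 4.05, 4.44, 3.97, 3.88 and 3.88, and WT controls at 4.44, 4.31, 3.98, 4.35 and 4.24. The part of liver transcripts in the results was not tested beyond the covariate given next. With the liver list as a covariate 5 genes passed, and Ces1g (2.39), Serpind1 (1.46), Itih2 (-1.05), Gm8126 (1.07) and Wif1 (0.9) were those. Pon1 (-1.13, limma adjusted p = 0.08) and Aspg (-0.69, 0.1) were not.

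The Cyp2f2 difference at 4 weeks was then compared with that in other animals after 1 week at 40 ppm, where 469 genes passed (2.74%, 395 of them higher). Tested directly, 36 genes had a lower difference at 4 weeks than at 1 week and 0 a higher one (0.211% of those tested), and 35 of the 36 had passed at 1 week. Cd177, a neutrophil surface protein also made by injured epithelium, had a difference of 3.32 at 1 week and -0.1 at 4 weeks (SE 0.5 each, limma adjusted p for the fall = 0.011). Ghrl, the precursor of the hormone ghrelin, went from 2.72 to 0.25 (SE 0.36 each, 0.01), the protease inhibitor Wfdc3 from 2.57 to 0.44 (SE 0.27 each, 0.001), Cdc20, an activator of anaphase, from 2.18 to -0.1 (SE 0.36 each, 0.026), and Krt15 from 1.73 to -1.62 (SE 0.53 each, 0.026). The 36 included 7 members of the mitosis and DNA replication lists. The median difference of 29 mitosis genes was 1.09 at 1 week and -0.1 at 4 weeks, and that of 28 DNA replication genes 0.69 and -0.05. The proliferation antigen Mki67 was at -0.25 (SE 0.42) at 4 weeks. Of the 36 genes, 16 passed without WT 1-week control animal 2, 18 without WT 1-week animal 3 at 40 ppm, 23 without animal 5 of that group, 15 and 20 without WT 4-week control animals 1 and 5, and 19 without WT 4-week animal 3 at 40 ppm.

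The 7 genes of the 4-week difference were not among those 36. At 1 week all 7 had the same sign as at 4 weeks and 3 passed, namely Ces1g (1.57, SE 0.26, limma adjusted p = 3.1e-05), Pon1 (-2.38, SE 0.24, 3.4e-11) and Aspg (-0.66, SE 0.15, 0.0037). Pon1 was thus lower at 1 week, when exposed WT mice averaged 8.8 ± 0.4 (SD, n = 5) against 11.23 ± 0.22 in their controls, and the difference between the times was 1.27 (SE 0.34, limma adjusted p = 0.092). Serpind1 and Itih2 showed little at 1 week, 0.23 (SE 0.21) and -0.02 (SE 0.2), and the differences between the times were 1.16 (SE 0.29, limma adjusted p = 0.056) and -1.07 (SE 0.28, 0.092). None of the 7 passed the test between times, and for Wif1 (0.24, SE 0.17) and Gm8126 (0.31, SE 0.22) the 1-week values were small as well.

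**Figure D5:**
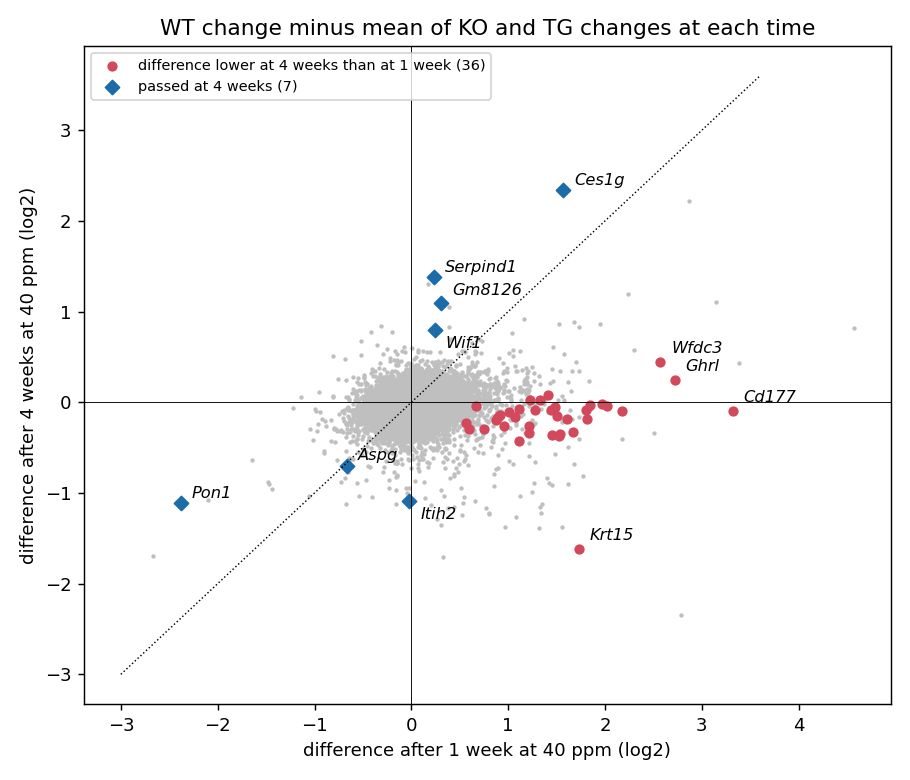
Cyp2f2 difference after 4 weeks at 40 ppm (y axis) against that after 1 week (x axis), log2, 1 point per gene, from 5 animals per group. Red points are the 36 genes with a lower difference at 4 weeks than at 1 week and blue diamonds the 7 genes that passed at 4 weeks, and the dotted line marks equal values. The red points lie right of 0 on the x axis, Cd177 at 3.32, and near 0 on the y axis except Krt15 at -1.62.

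Dose was read from the 4-week groups at 120 ppm, which share their controls with the 40 ppm groups. In the direct comparison of 120 with 40 ppm, in which the controls cancel, 0 genes passed by limma (344 at an unadjusted p under 0.05, 2.01%), and 1 passed without exposed WT animal 3 at 40 ppm or without WT animals 1 or 3 at 120 ppm. At 120 ppm the WT mean was 8.09 ± 0.39 (SD, n = 5) for Ces1g, 6.53 ± 0.31 for Serpind1, 3.78 ± 0.12 for Itih2 and 9.95 ± 0.24 for Pon1. The change from 40 to 120 ppm in the Cyp2f2 difference was 0.36 (SE 0.26) for Ces1g, 0.46 (SE 0.21) for Serpind1, 0.1 (SE 0.2) for Itih2 and -0.03 (SE 0.24) for Pon1. Side by side, the differences at 40 and 120 ppm were 2.34 and 2.7 for Ces1g, 1.38 and 1.85 for Serpind1, 1.1 and 1.15 for Gm8126, 0.8 and 0.71 for Wif1, -0.7 and -0.46 for Aspg, -1.09 and -0.99 for Itih2 and -1.11 and -1.13 for Pon1. At 120 ppm 8 genes passed (0.0468%), and 5 of the 7 were among them.

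The genes whose levels followed these most closely over the 30 animals were taken by Pearson correlation, as a description. For Ces1g they were Azgp1 (r = 0.95), Nqo1 (0.91) and Gpx2 (0.91), for Serpind1 Azgp1 (0.84), Wif1 (0.81) and Tcfl5 (0.81), and for Pon1 A930001A20Rik (0.85), Itih2 (0.79) and Asgr1 (0.73). The 30 animals share the strain and exposure groups, which set much of such a value. Nqo1 and Gpx2, a glutathione peroxidase, followed Ces1g although their Cyp2f2 differences were 0.11 (SE 0.22) and 0.22 (SE 0.24), and the unexposed strains differed in Nqo1 as they did in Ces1g.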

How the data were processed

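The authors deposited log2 expression values per probe set from Affymetrix HT MG-430 PM arrays. The submitters' processing notes name RMA and Partek, without a version. Per the labels' protocols, RNA was isolated with Trizol followed by RNeasy. Processing of this kind compresses low signals, which understates changes of dim genes. The table held 45141 probe sets, 104 of them controls, and 28898 with 1 listed gene symbol. The brightest probe set stood for a gene (17097 genes).

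limma 3.58.1 (R 4.3.3) estimated a mean for each of the 18 groups from all 90 arrays, with 72 residual degrees of freedom. The 9 comparisons, and those at 1 week, at 120 ppm and between unexposed strains, are contrasts of these means. Adjustment was by Benjamini-Hochberg within each contrast, and an adjusted p under 0.05 passed. Cyp2f2 in each strain was tested by exact permutation. On simulated data with 200 of 17097 genes changed and independent noise, the Cyp2f2 difference recovered 87% of 2-fold and 57% of 1.5-fold changes. In that simulation 148 genes passed, against 7 in the data, and the adjusted p depends on how many genes change. These shares therefore do not give the recovery in the data. Differences over 2-fold could be missed, such as Gp2 at 2.22 (limma adjusted p = 0.58).

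Replicates are animals per the labels. Same-numbered animals were checked for pairing, with 6 of 15 correlations of their deviations over 0.1 (range -0.33 to 0.37), and were not paired. The members and the 40 gene lists were chosen with earlier results of these data known. Named genes were those that passed, those with the 10 smallest p values in each direction, up to 4 members of each list described, up to 5 that passed for strain, time and dose, and 14 genes named in advance for any comparison (Cyp2f2, Scgb1a1, Scgb3a2, Mki67, Dbp, Arntl, Pon1, Ghrl, Wfdc3, Cd177, Agr2, Ces1g, Nqo1 and Retnla). The genes named among the 26 of the WT change and as most alike go beyond this rule and were chosen after their values were seen. Alternatives covered normalization, dim genes, probe sets, arrays in the fit, variance settings, weighted arrays, a block for replicate number, a poly-A covariate, low-weight arrays and each animal in turn. The 2 covariates for other tissues were chosen after seeing the data. Probe sets naming more than 1 gene, or no gene, were not analysed here.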

Additional observations from a re-analysis of the deposited data

Results flagged for a closer look

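The Cyp2f2 difference itself, WT against the mean of KO and TG, is a difference between groups for each gene that passed: Ces1g at 2.34, Serpind1 at 1.38, Gm8126 at 1.1, Wif1 at 0.8, Aspg at -0.7, Itih2 at -1.09 and Pon1 at -1.11. For 36 genes the difference at 4 weeks lay below that at 1 week. Among 72 groups of 5 animals examined for 12 genes, a single animal stood far from the rest in 2, and chance gives about 1 in 20. Itih2 read 3.85 in TG control animal 3 against 4.12 in the nearest other, and Arntl read 6.26 in exposed KO animal 2 against 7.13 in the nearest other.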

How the results depend on the processing

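Ces1g, Serpind1 and Itih2 kept their call under each of the 10 alternatives that tested them and in each fit without 1 animal. With genes below the 40th percentile left out, 0 genes passed for the Cyp2f2 difference, since 6 of the 7 were no longer tested and Pon1 had an adjusted p of 0.16 by limma. That filter gave 12 genes for WT, 0 for WT against KO, 0 for WT against TG and 5 for the time comparison. With array weights the counts were 27 (all 7 among them), 87 for WT, 10 for KO, 73 for TG, 7 for WT against KO, 31 for WT against TG, 9 for TG against KO and 120 for time, and the cause was not tested. With the poly-A covariate they were 56 for WT, 109 for TG and 57 for time. Without the 4 low-weight arrays they were 41 for WT, 4 for KO, 4 for TG, 5 for WT against TG and 67 for time. With only the arrays compared they were 10 for WT against TG and 107 for time. The Cyp2f2 difference again had 7 genes there, with Asgr1 and Azgp1 in place of Aspg (limma adjusted p = 0.14) and Gm8126 (0.053). Without the low-weight arrays it had 6, all but Aspg, and quantile normalization gave 1 for dose.

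Leaving out 1 animal gave from 3 to 10 genes for the Cyp2f2 difference, 12 to 26 for WT, 0 to 8 for KO, 0 to 1 for TG, 2 to 4 for WT against KO, 2 to 4 for WT against TG, 0 for TG against KO, 15 to 51 for time and 0 to 1 for dose. With the replicate number as a block, 9 genes passed, the same 7 with A930001A20Rik and Asgr1, and 6 of 15 pairs of equally numbered animals correlated best with each other. Scgb3a2 turned to 0.01 with the muscle covariate, and Cd177 to 0.01 with the liver covariate and to 0.04 and 0.01 without WT control animal 1 and exposed WT animal 2 (its lowest value without 1 animal was -0.28). 6 of the 7 genes had a mean level at or below the 40th percentile, and 3 of them a mean below the lowest array median.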
